A study of Mus musculus with 24 samples.

Results

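The islet cell types other than β-cells were followed through 7 identity genes, 4 of the glucagon-producing alpha cells (Irx1, Irx2, Pou3f4 and Ttr) and 3 of the somatostatin-producing delta cells (Hhex, Ghsr and Rbp4). They were taken by symbol from the deposited mRNA-seq table of 41549 genes, leaving the hormones out of the set, and all 7 passed the filter on low counts and were among the 15916 genes tested. The table covers dispersed pancreatic islet cells of wild-type C57BL/6NRj mice of both sexes aged 12 to 14 weeks. Cells were transfected with 50 pmol of a control antisense oligonucleotide (Ctr ASO) or of an oligonucleotide against the 5′tRF-Glu(CTC), a fragment cut from the 5′ part of a transfer RNA (αGlu ASO). They were then cultured for 48 h with 0.5 mM palmitate (PA) bound to bovine serum albumin (BSA), or with 0.75% BSA alone. Each ASO was combined with each medium (Ctr BSA, αGlu BSA, Ctr PA, αGlu PA), and each of these 4 groups held 6 libraries, 3 in batch 1 (S1 to S12) and 3 in batch 2 (S13 to S24). The labels do not say what a batch is. According to the study's reporting notes, the groups of one biological replicate shared their animal, but the labels do not give which libraries belong together, so that libraries were treated as independent. Differences between animals thus stay in the spread of the treatment comparisons, whose intervals and p-values may be too large.

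Alpha and delta cells share the islet with the more numerous β-cells, and each secretes a hormone that acts on its neighbours: glucagon raises blood glucose, and somatostatin restrains the release of both insulin and glucagon. Their identity is kept by transcription factors, of which the Iroquois homeobox proteins IRX1 and IRX2 and the POU-domain protein POU3F4 (BRN4) mark alpha cells, while the homeobox repressor HHEX is required for delta cells. The other 3 genes encode proteins with functions at or outside the cell surface. TTR (transthyretin) carries thyroid hormone and binds the retinol carrier RBP4, and GHSR is the receptor through which ghrelin reaches delta cells. In a mixture of cells, fewer cells of a type and less RNA per cell cannot be told apart, and neither can TTR made by alpha and by β-cells.

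The oligonucleotide that sets the αGlu groups apart is shown because all αGlu comparisons rest on it. In the lines that follow, written 5′ to 3′ from the study's oligonucleotide list, capitals in the target mark the 20 bases complementary to the oligonucleotide, which start at base 2 of the fragment.
αGlu ASO: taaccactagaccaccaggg
5′tRF-Glu(CTC) target: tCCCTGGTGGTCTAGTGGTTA
No library here reads the fragment itself, since only mRNA was sequenced. The longest stretch of these 20 target bases in any annotated transcript of the 7 genes had 8 bases, in Irx1 (tagtggtt), Hhex (ccctggtg) and Ghsr (ctggtggt). A stretch as long occurred in 49.4% of the 14337 protein-coding genes tested, and the other 4 genes had 6 or 7 bases.

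The libraries held between 18214719 and 35001979 counts (median 26701201.5). Levels are given as CPM, counts relative to the library total after scaling by the trimmed mean of M values, and the counts behind them differed widely between the genes. Pou3f4 had 19 to 59 counts in a library, Ghsr 40 to 103, Hhex 72 to 218, Irx1 95 to 338, Irx2 214 to 680, Rbp4 1060 to 2675 and Ttr 5191 to 13474. Counting error alone gave a coefficient of variation of 17.7% for Pou3f4, against 30.7% measured over all libraries, but 1.01% for Ttr against 19.7% measured. One library stood apart before any comparison: Ctr BSA S1 had the fewest counts (18214719) and a scaling factor of 0.853, while the other 23 libraries had factors between 0.939 and 1.06. Values without it are given beside some of the results that it moved, not beside all. Sst, the somatostatin gene that defines delta cells, had 171 to 562 CPM, and Gcg, the glucagon gene that defines alpha cells, 9204 to 24782 CPM, so that both cell types were present in every library. Markers of exocrine acinar cells were also present, with summed levels of 2944 to 20945 CPM in batch 1 and 211 to 585 CPM in batch 2.

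Per transcript length, the 7 genes covered a wide range of levels. In Ctr BSA the median deposited level in TPM, a length-corrected share of transcripts, was 819 for Ttr, ranging from 516 to 993, and 122 for Rbp4, ranging from 102 to 134. The transcription factors of alpha cells followed, with medians of 10.4 TPM for Irx2 and 6.57 TPM for Irx1. Hhex had 2.64 TPM, Ghsr 1.54 TPM and Pou3f4 1.05 TPM. Ttr lay above Rbp4 in all 6 libraries without overlap, as Rbp4 lay above Irx2 and Irx1 above Hhex. The ranges of Irx2 and Irx1, of Hhex and Ghsr, and of Ghsr and Pou3f4 overlapped. In the mouse genome build GRCm38 (GENCODE M21), Irx1 (ENSMUSG00000060969) lies at chr13:71957921-71963723 on the minus strand and Irx2 (ENSMUSG00000001504) at chr13:72628820-72634198 on the plus strand, with 665.1 kb between them. Hhex (ENSMUSG00000024986, chr19:37434810-37440731, plus strand) and Rbp4 (ENSMUSG00000024990, chr19:38116629-38125281, minus strand) also share a chromosome, 675.9 kb apart. Ghsr (ENSMUSG00000051136) lies at chr3:27371351-27378010 and Pou3f4 (ENSMUSG00000056854) at chrX:110814280-110817207, both on the plus strand, and Ttr (ENSMUSG00000061808) on chromosome 18. All are protein-coding genes, counted over their exons, and no other annotated gene overlaps any of them. The relatives of the transcription factors were hardly transcribed: Irx3, Irx4, Irx5, Irx6, Pou3f1, Pou3f2 and Pou3f3 all fell under the filter, with at most 29 counts in any library.

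**Figure D1:**
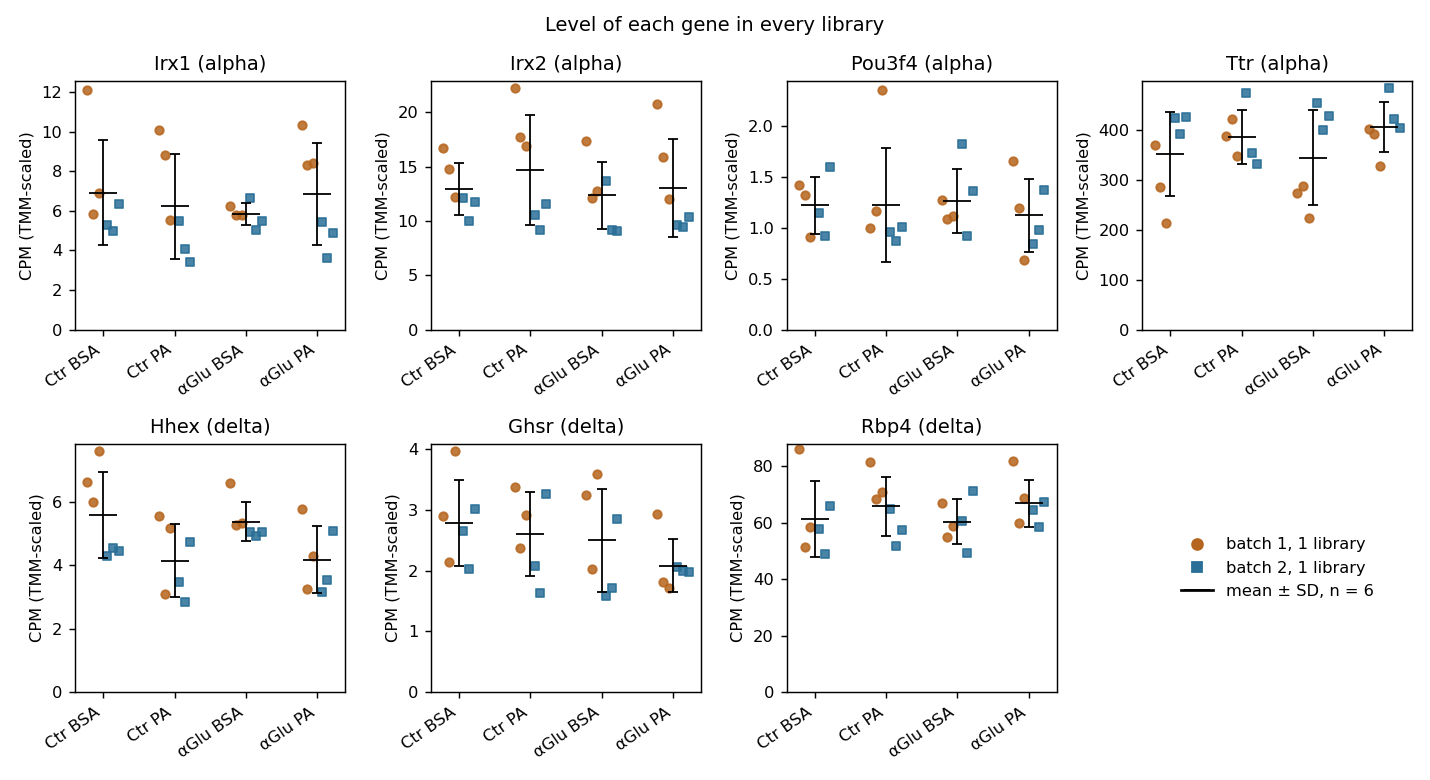
Level of the 7 genes in each of the 24 libraries, in TMM-scaled CPM (y axis from 0) by group (x axis); circles are libraries of batch 1, squares of batch 2, and bars show the mean ± SD of 6 libraries. Irx1 and Irx2 sit higher in batch 1 in every PA group, Hhex is lower in PA than in BSA on average, and the groups overlap for every gene.

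The first question was whether palmitate, the lipotoxic challenge of the study, alters alpha and delta cell identity genes. With Ctr ASO, none of the 7 genes passed an adjusted p of 0.05 (edgeR's quasi-likelihood test), against 30% of all genes tested, and 1 of them, Hhex, had an unadjusted p below 0.05. With αGlu ASO again none passed, against 28.5% of all genes, and Hhex and Ttr had an unadjusted p below 0.05. DESeq2 called 1 of the 7 in Ctr (Hhex) and none in αGlu. At the threshold used in the study, more than a 2-fold change at an unadjusted p below 0.05, none of the 7 was called in either, against 5.91% and 5.57% of all genes. The median log2 fold change of the 7 genes was -0.01 in Ctr and 0.05 in αGlu, beside 0.01 and 0.01 for all genes tested.

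Among the alpha cell transcription factors, Irx1 ranged from 4.96 to 12.1 CPM (median 6.11) in Ctr BSA and from 3.40 to 10.1 CPM (median 5.52) in Ctr PA. With αGlu ASO it ranged from 5.04 to 6.63 CPM (median 5.80) in BSA and from 3.64 to 10.3 CPM (median 6.88) in PA. The groups overlapped throughout, and the highest libraries of every group but αGlu BSA were in batch 1. The log2 fold change with PA was -0.17 in Ctr (95% interval -0.57 to 0.23) and 0.15 in αGlu (-0.25 to 0.55), and without library S1 the former became -0.02. Irx2 ranged from 9.97 to 16.8 CPM (median 12.2) in Ctr BSA and from 9.13 to 22.2 CPM (median 14.2) in Ctr PA. Its range was 9.11 to 17.3 CPM (median 12.4) in αGlu BSA and 9.45 to 20.8 CPM (median 11.2) in αGlu PA. The log2 fold changes of Irx2 were 0.14 (-0.15 to 0.43) and 0.05 (-0.24 to 0.34). Pou3f4, the least abundant, had medians of 1.23 and 1.00 CPM in Ctr BSA and Ctr PA and of 1.19 and 1.09 CPM in αGlu BSA and αGlu PA. Its log2 fold changes were -0.01 (-0.56 to 0.54) and -0.17 (-0.73 to 0.38), intervals wide enough to hold a change of 1.5-fold in αGlu.

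Ttr, the secreted carrier protein, ranged from 214 to 427 CPM (median 380) in Ctr BSA and from 331 to 475 CPM (median 371) in Ctr PA. In αGlu it ranged from 223 to 454 CPM (median 344) in BSA and from 329 to 485 CPM (median 403) in PA. The lowest libraries of both BSA groups were those of batch 1, and the ranges overlapped. Its log2 fold change was 0.17 (-0.10 to 0.43) in Ctr and 0.27 (0.00 to 0.53; adjusted p = 0.126) in αGlu. A fit of only the αGlu libraries called it (log2 fold change 0.27, adjusted p = 0.0390).

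Of the delta cell genes, the transcription factor Hhex moved furthest. It ranged from 4.30 to 7.60 CPM (median 5.27) in Ctr BSA and from 2.86 to 5.56 CPM (median 4.11) in Ctr PA. With αGlu ASO the range was 4.92 to 6.59 CPM (median 5.17) in BSA and 3.17 to 5.77 CPM (median 3.92) in PA. In both comparisons the upper PA libraries reached into the BSA range. The log2 fold change was -0.41 (-0.75 to -0.07; edgeR adjusted p = 0.0608) in Ctr and -0.36 (-0.70 to -0.02; adjusted p = 0.105) in αGlu. It missed the threshold in both, but the omission of any of several single libraries changed this. Without Ctr PA S3 the edgeR adjusted p in Ctr was 0.0452, without Ctr PA S23 it was 0.0272, and without αGlu PA S8 it was 0.0494. In αGlu the value without αGlu PA S24 was 0.0380. Other omissions raised the adjusted p, up to 0.155 in Ctr and 0.241 in αGlu.

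Ghsr, the ghrelin receptor, ranged from 2.02 to 3.96 CPM (median 2.77) in Ctr BSA and from 1.63 to 3.37 CPM (median 2.64) in Ctr PA. Its range was 1.58 to 3.59 CPM (median 2.44) in αGlu BSA and 1.72 to 2.93 CPM (median 1.99) in αGlu PA. The log2 fold changes with PA were -0.10 (-0.54 to 0.34) and -0.24 (-0.69 to 0.20). Rbp4, the retinol carrier, had the narrowest spread of the delta genes: medians were 58.2 CPM in Ctr BSA, 66.5 CPM in Ctr PA, 59.7 CPM in αGlu BSA and 65.8 CPM in αGlu PA, with a lowest value of 48.7 CPM and a highest of 85.9 CPM over all groups. Its log2 fold changes were 0.10 (-0.14 to 0.33) in Ctr and 0.14 (-0.09 to 0.38) in αGlu. Without library S1, the highest for Rbp4, the value in Ctr was 0.20 (adjusted p = 0.155).

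**Figure D2:**
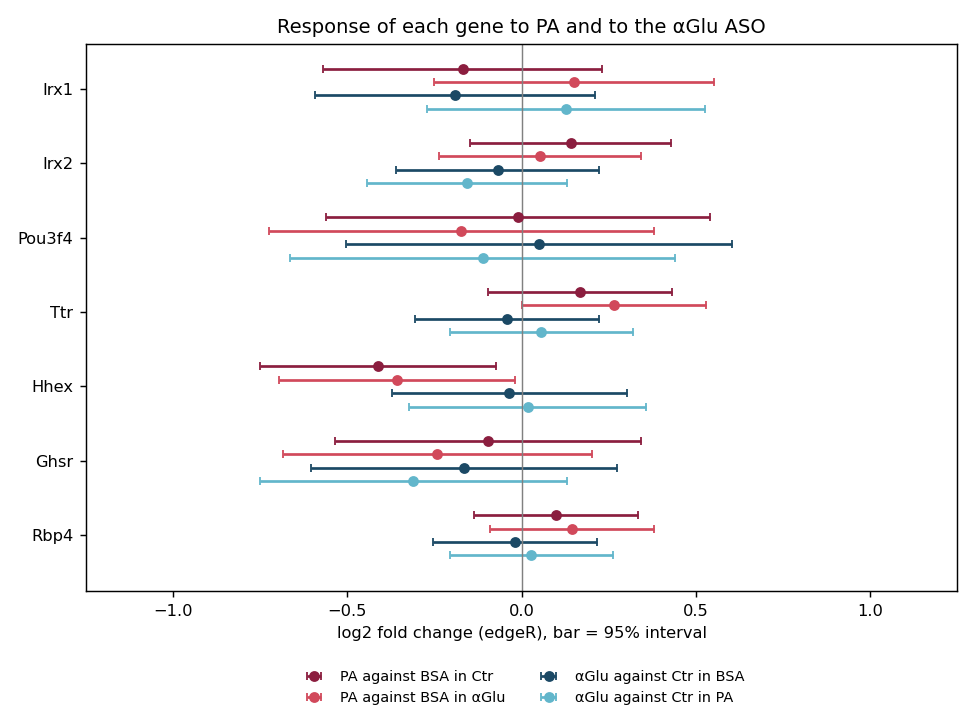
Log2 fold change of the 7 genes (x axis, edgeR; y axis, gene) for PA against BSA with Ctr or αGlu ASO and for αGlu against Ctr in BSA or PA; bars are 95% intervals, from 24 libraries in one fit. The intervals of Hhex lie below 0 in both PA comparisons before adjustment for the number of genes, while nearly all others include 0.

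Both PA comparisons were also averaged over the ASOs, which doubles the libraries on each side to 12; this contrast was chosen after the separate values were seen. Here Hhex fell, from 5.48 ± 1.02 CPM (SD, n = 12) in BSA to 4.17 ± 1.06 CPM (n = 12) in PA, a fold of 0.77 (95% interval 0.65 to 0.90; log2 fold change -0.39 ± 0.12 SE, edgeR adjusted p = 0.00886). It was 1 of 7 genes called, against 45.4% of all genes tested, so that the share of the 7 lay below that of all genes. The fall was -0.46 in batch 1 alone (adjusted p = 0.0744) and -0.31 in batch 2 alone (adjusted p = 0.151), the same direction in both. With 1 library left out at a time, the value stayed between -0.44 and -0.34 and passed the test each time (adjusted p between 0.00303 and 0.0192). Ttr had a log2 fold change of 0.22 ± 0.09 SE (adjusted p = 0.0549), and the remaining 5 genes lay between -0.17 and 0.12, with adjusted p of 0.227 or more. Without library S1 the value of Ttr was 0.25 (adjusted p = 0.0267) and that of Rbp4 0.17 (adjusted p = 0.0540), while Hhex had -0.37 (adjusted p = 0.0134).

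Other delta cell genes were counted beside Hhex. The hormone gene Sst fell with PA in Ctr (mean of 381 to 236 CPM, log2 fold change -0.69 ± 0.16 SE, adjusted p = 0.00212) and in αGlu (373 to 253 CPM, -0.56 ± 0.16, adjusted p = 0.0104). It was the only gene called of the 4 tested on the delta list in either comparison, and Spock3 joined it in the averaged contrast (-0.76 ± 0.23, adjusted p = 0.00939). The fatty acid receptor Ffar4 had -0.11 and 0.01 and the receptor Crhr2 -0.12 and -0.21 on the log2 scale, with adjusted p of 0.642 or more. Of the other alpha cell genes, Gc rose in Ctr (log2 fold change 0.99, from 87.6 to 174 CPM) and in αGlu (0.93, from 87.6 to 166 CPM). The glucagon gene Gcg had log2 fold changes of 0.05 and 0.01. Averaged over the ASOs, Slc7a2 (-0.25) fell and Gc rose. The hormones of the rarest endocrine cells fell in Ctr, Ppy by 0.50 and Ghrl by 1.89 on the log2 scale. In αGlu, Ghrl fell by 2.20 while Ppy had -0.23 (edgeR adjusted p = 0.169). Ghrl was near the floor, with 9 to 14 counts per library in Ctr PA and 6 to 16 in αGlu PA. Markers of other cells were also lower with PA. Of the fibroblast and stellate cell list, 6 of 7 tested genes fell in Ctr and 4 in αGlu, and the summed level of the list had a median of 200 CPM in Ctr BSA (72.2 to 423) and of 25.2 CPM in Ctr PA (8.25 to 47.3). Of 10 acinar genes, 7 and 6 fell, with a summed median of 3544 CPM in Ctr BSA and 1759 CPM in Ctr PA. Of 8 ductal genes, 4 and 3 fell, beside 30% and 28.5% of all genes called in either direction. The part of these shifts in the values of the 7 genes was not tested.

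The pathways that GHSR and RBP4 belong to were read from hand-written lists. Of the ghrelin axis, only the receptor accessory gene Mrap2 passed the filter, and it fell in Ctr (-1.16, adjusted p = 0.00449) and had -0.70 in αGlu. Of 13 tested genes of retinol transport and retinoic acid, 2 rose and 4 fell in Ctr and 2 rose and 2 fell in αGlu. Of all genes tested, 30% were called in Ctr and 28.5% in αGlu, in either direction, so these counts do not set the list apart in αGlu. The retinal-oxidizing enzyme gene Aldh1a3 rose in both (1.17 and 1.16), as did the retinol dehydrogenase gene Dhrs9 (1.16 and 1.07), whereas Aldh1a2 fell (-2.34 and -2.45). The median log2 fold change of the list was -0.24 in Ctr and -0.26 in αGlu.

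The second question was whether blockade of the 5′tRF-Glu(CTC) changes these genes. None of the 7 was called in BSA or in PA, and none had an unadjusted p below 0.05 with edgeR or DESeq2. The background was as low: edgeR called 0% of all genes in either medium, with 461 and 538 genes at an unadjusted p below 0.05, and DESeq2 called 8 and 30 genes. The study's threshold took 0.785% of all genes in BSA and 0.942% in PA, and none of the 7. In BSA the log2 fold changes ran from -0.19 (Irx1; -0.05 without library S1) to 0.05 (Pou3f4), and in PA from -0.31 (Ghsr, 95% interval -0.75 to 0.13) to 0.13 (Irx1). Hhex had -0.04 (-0.37 to 0.30) in BSA and 0.02 (-0.32 to 0.36) in PA. Rbp4 had -0.02 in BSA, or 0.08 without library S1. The 95% intervals in BSA reached 0.23 to either side of the value for Rbp4 and 0.55 for Pou3f4, so that smaller changes could be missed at this depth and spread. Since libraries of one animal were not matched, these intervals may be too wide. Averaged over both media, a contrast chosen after seeing the data, 0.239% of all genes were called and none of the 7, with values between -0.24 (Ghsr, adjusted p = 1.00) and 0.01 (Ttr).

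The third question was whether the αGlu ASO alters the response to PA. No interaction of the 7 genes was called, edgeR called 0% of all genes (332 with an unadjusted p below 0.05), and DESeq2 called none either. At the study's threshold 0.653% of all genes and none of the 7 passed. The interaction was 0.32 for Irx1 (95% interval -0.25 to 0.89) on the log2 scale, or 0.18 without library S1. For Pou3f4 it was -0.16, or -0.19 without that library, and for Hhex 0.05 (-0.43 to 0.53). The interaction of Rbp4 was 0.05, or -0.06 without library S1. Both PA responses and both αGlu contrasts draw on the same 4 groups and are therefore not independent of each other.

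More genes differed between the batches than in any treatment comparison. Between batch 2 and batch 1, 4 of the 7 genes were called, against 51.5% of all genes tested, so the share was close to the background. None passed the study's threshold, against 6.38% of all genes. Libraries of one animal are not independent and could not be identified. The p-values between the batches may therefore be too small, and the counts of genes called too high. The genes moved in both directions. Irx1 had 5.54 to 12.1 CPM (median 7.60) in the 12 libraries of batch 1 and 3.40 to 6.63 CPM (median 5.17) in the 12 of batch 2, a log2 fold change of -0.62 ± 0.14 SE (edgeR adjusted p = 5.4e-04), or -0.55 without library S1. Irx2 had 12.05 to 22.2 CPM (median 16.3) in batch 1 and 9.11 to 13.6 CPM (median 10.2) in batch 2, and was lower by -0.59 ± 0.10 (adjusted p = 2.3e-05). Both Iroquois genes thus had about the same shift, with overlapping ranges. Hhex was lower by -0.32 ± 0.12 (adjusted p = 0.0221), with medians of 5.45 CPM in batch 1 and 4.50 CPM in batch 2. Ttr went the other way, from 214 to 422 CPM (median 339) in batch 1 to 331 to 485 CPM (median 423) in batch 2, a log2 fold change of 0.36 ± 0.09 (adjusted p = 0.00171). Pou3f4 (-0.14), Ghsr (-0.29, adjusted p = 0.110) and Rbp4 (-0.17, adjusted p = 0.0856) were not called, although Ghsr was called without Ctr PA S23 (adjusted p = 0.0490) and Rbp4 without Ctr BSA S5 (0.0385) or αGlu BSA S22 (0.0329).

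Other identity genes moved alongside. Of the other alpha genes, Gcg was lower in batch 2 (-0.57), and Gc, Slc7a2 and Slc38a5 were not called. Of the delta list, Ffar4 (-0.38) was lower, and Sst had -0.02 (adjusted p = 0.911). The pancreatic polypeptide gene Ppy was lower by -0.79, and batches did not overlap for it. All 10 β-cell genes were higher in batch 2, from 0.20 (Nkx6-1) to 0.91 (G6pc2). All 10 acinar genes were lower, with a median of -4.37, and of 8 ductal genes 6 were lower and 1 was higher. The part of these differences in the values of the 7 genes was not tested.

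**Figure D3:**
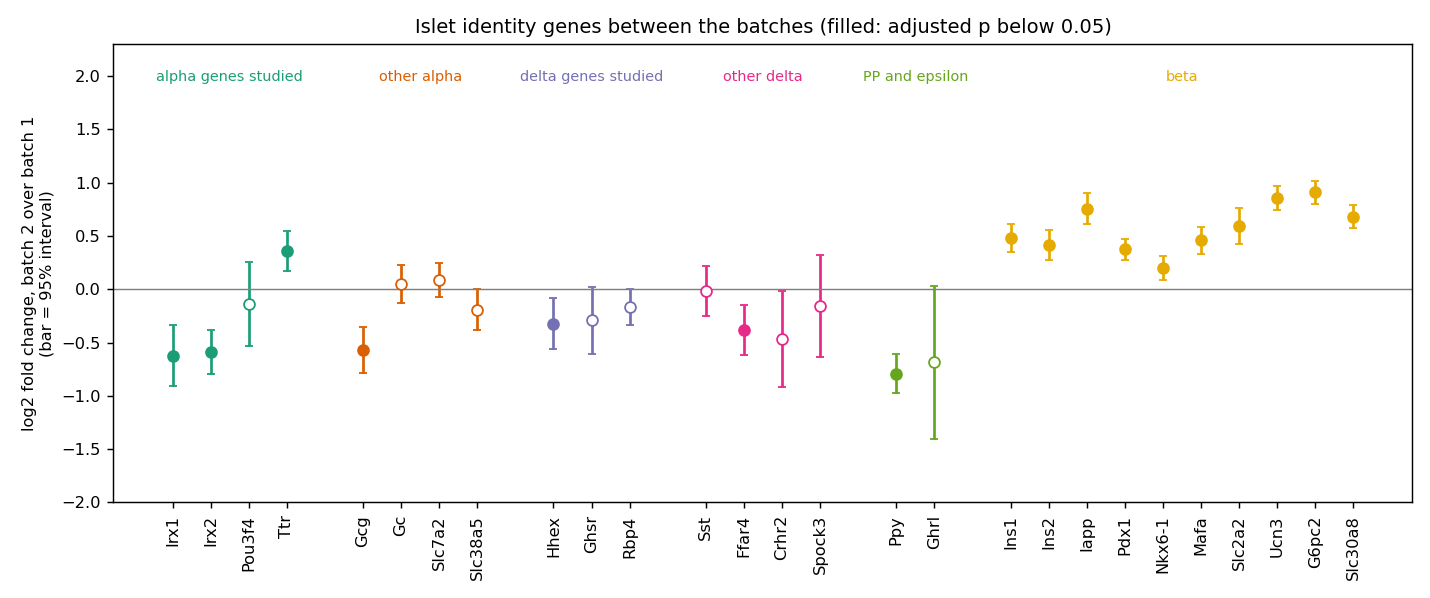
Log2 fold change of batch 2 over batch 1 (y axis, edgeR; bars, 95% intervals) for the 7 genes and for other islet identity genes (x axis), grouped by cell type; filled points passed an adjusted p of 0.05. Irx1, Irx2 and Gcg lie between -0.62 and -0.57, Ttr lies above 0 at 0.36, and all 10 β-cell genes lie above 0.

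Because the batches held 3 libraries of every group, the PA response could be read within each, averaged over the ASOs. These averages were above 0 in batch 1 and below 0 in batch 2 for the 4 alpha genes. Irx1 had log2 fold changes of 0.29 and -0.32, Irx2 of 0.29 and -0.11, Pou3f4 of 0.16 and -0.37, and Ttr of 0.46 and -0.03. The ASOs were not alike in this: in batch 1 Irx1 had -0.01 in Ctr and 0.59 in αGlu, and Pou3f4 had 0.30 in Ctr and 0.02 in αGlu, while in batch 2 Ttr had -0.10 in Ctr and 0.03 in αGlu. Of these values only that of Ttr in batch 1 was called (adjusted p = 0.0128), where its mean was 276 CPM in BSA and 380 CPM in PA, against 421 and 412 CPM in batch 2. Gcg had the same pattern (0.26 and -0.21), as had Slc38a5 (0.19 and -0.48). Other alpha genes kept their sign: Slc7a2 had -0.26 and -0.25, and Gc had 1.09 and 0.82. The difference between the batches' PA responses was tested in a model in which every group had its own level in every batch, chosen after seeing the data. It was -0.50 ± 0.15 SE for Ttr (unadjusted p = 0.00383), -0.62 ± 0.25 for Irx1 (unadjusted p = 0.0204), -0.41 ± 0.19 for Irx2 (unadjusted p = 0.0431) and -0.53 ± 0.38 for Pou3f4 (unadjusted p = 0.173). For Pou3f4 it was -0.30 without Ctr PA S11, its highest PA library. Without library S1 the differences were -0.60 for Ttr (adjusted p = 0.0879), -0.81 for Irx1 (adjusted p = 0.222), -0.46 for Irx2 and -0.28 for Rbp4 (adjusted p = 0.574). With all libraries, none passed adjustment over all genes (smallest adjusted p = 0.483 for Ttr), and 0.0565% of all genes did. For the delta genes the differences were 0.15 (Hhex), 0.17 (Ghsr) and -0.16 (Rbp4), with unadjusted p of 0.344 or more, and Sst had -0.63 in batch 1 and -0.62 in batch 2.

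**Figure D4:**
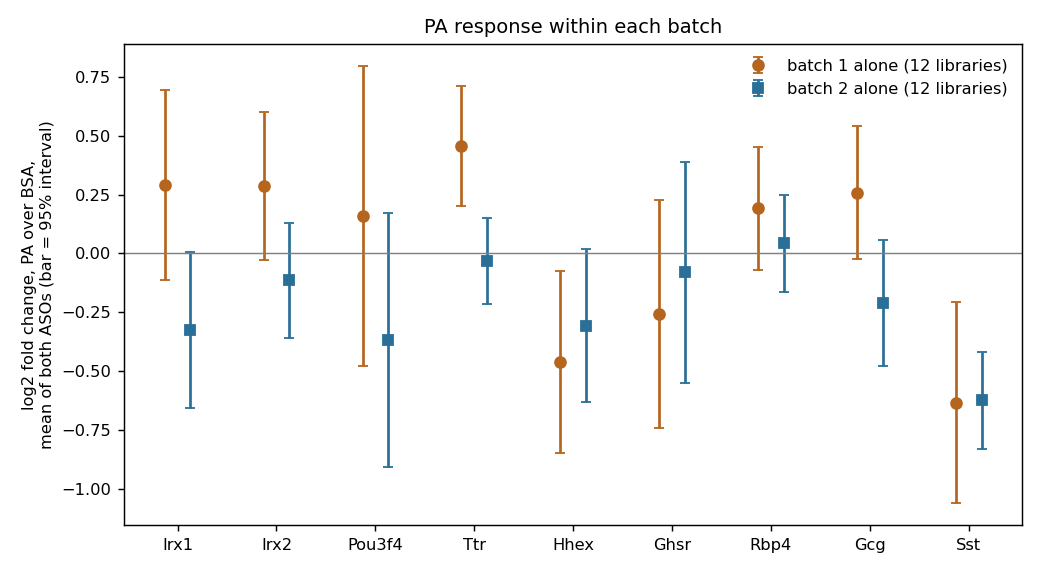
Log2 fold change of PA over BSA, averaged over both ASOs (y axis, edgeR; bars, 95% intervals), in each batch fitted alone (12 libraries each), for the 7 genes, Gcg and Sst (x axis). Irx1, Irx2, Pou3f4, Ttr and Gcg lie above 0 in batch 1 and below 0 in batch 2, and Sst is at -0.63 and -0.62.

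To see which genes vary together among libraries of the same treatment, the mean of each group and batch was subtracted from log2 CPM, and the 36 pairs among the 7 genes, Gcg and Sst were correlated over the 24 libraries. P-values came from 100000 permutations within group and batch (two-sided) and were adjusted over the 36 pairs. The points share library scaling, so that a library such as S1 moves several genes at once, and 6 pairs passed. Libraries from the same animal are not independent points either, and since they could not be identified, the p-values may be too small. Within the alpha set, Irx2 followed Gcg (Pearson's r = 0.73, permutation p = 0.000670, adjusted p = 0.0121; Spearman's rho = 0.73, permutation p = 0.000970), and r was 0.75 without the 2 libraries farthest from the median. Within the delta set, Hhex followed its fellow gene Ghsr (r = 0.59, permutation p = 0.00555, adjusted p = 0.0333; rho = 0.53, permutation p = 0.0146; r = 0.52 without 2 libraries). Rbp4 followed Sst with the highest r of all pairs (r = 0.85, permutation p = 0.000110, adjusted p = 0.00396; rho = 0.83, permutation p = 8.0e-05; r = 0.77 without 2 libraries, r = 0.95 in batch 1 and 0.67 in batch 2).

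The remaining 3 pairs crossed the cell types. Rbp4 went with Gcg (r = 0.75, permutation p = 0.00173, adjusted p = 0.0156; rho = 0.83, permutation p = 0.000190; r = 0.79 without 2 libraries). It also went with Irx1 (r = 0.72, permutation p = 0.00127, adjusted p = 0.0152; rho = 0.71, permutation p = 0.000910; r = 0.67 without 2 libraries), and Irx1 with Sst (r = 0.65, permutation p = 0.00260, adjusted p = 0.0187; rho = 0.61, permutation p = 0.00632; r = 0.59 without 2 libraries). The neighbouring genes Irx1 and Irx2 had r = 0.48 (permutation p = 0.0225, adjusted p = 0.0736; rho = 0.47, permutation p = 0.0360; r = 0.42 without 2 libraries). Over all 36 pairs the median r was 0.45, and it was 0.51 for the 10 pairs within the alpha set with Gcg, 0.57 for the 6 within the delta set with Sst and 0.33 for the 20 between them. The only negative values below -0.1 were those of Ttr with Hhex (-0.28) and with Ghsr (-0.25), neither of which passed.

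**Figure D5:**
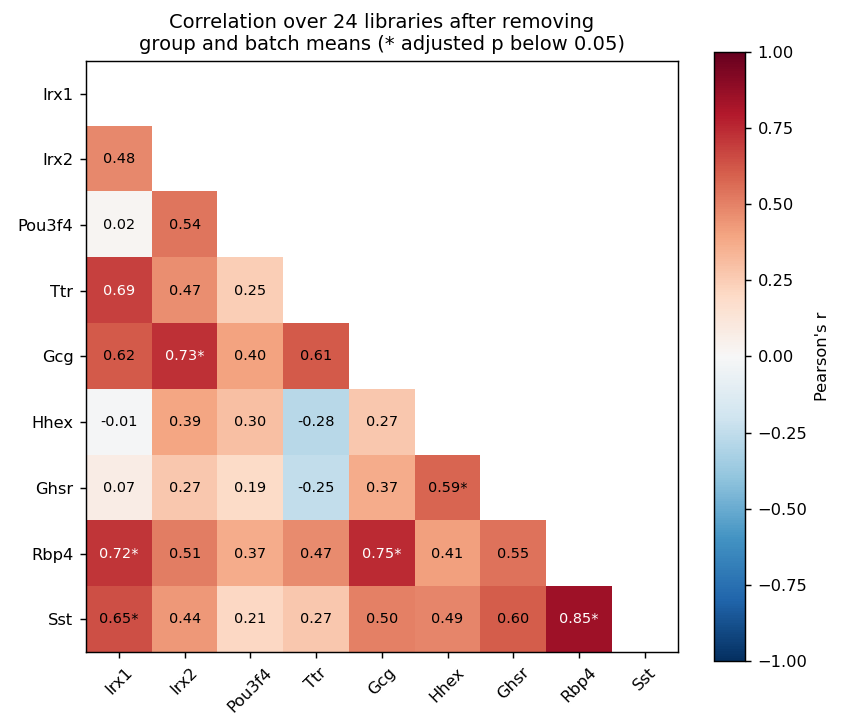
Pearson's r between log2 CPM values of the 7 genes, Gcg and Sst over 24 libraries after subtraction of the mean of each group and batch; both axes list the genes, colour gives r, and asterisks mark the 6 pairs with an adjusted permutation p below 0.05. Rbp4 with Sst is highest at 0.85, followed by Rbp4 with Gcg at 0.75 and Irx2 with Gcg at 0.73.

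The genes most like each of the 7 were read as the highest Pearson's r of log2 CPM over the 24 libraries after subtraction of the batch means only, so that the PA response is included; these values are a description over 15915 other genes. Gcg ranked 2nd for Irx2 (r = 0.75), after the glutamate receptor gene Gria2 (0.75), and Scn3b, Limch1 and Gm10451 followed. For Irx1 they included Rhpn1 (0.77), Gpx3, Pyy, which encodes peptide YY, and Ddc (0.73), and Gcg ranked 16th (0.68). Pou3f4 had its highest values with Fgf11 (0.69), Armh3, Vps52, Cyp2j8 and Plcb2 (0.62). For Ttr they were Ssr4 (0.89), Pcsk2, the prohormone convertase 2 gene (0.85), Tmed3, Scg5 and Apcdd1 (0.83). The delta genes had different neighbours. Hhex was most like D130043K22Rik (0.81), Neo1, Amph, Gm48796 and Nav1 (0.78), with Sst at rank 43 (0.73) and Gcg at rank 5889 (0.11). Ghsr was most like Gm3055 (0.79), Cdh2, Gm609, 9330159F19Rik and the delta cell gene Spock3 (0.70). Rbp4 was most like Scgn, the secretagogin gene (0.83), Dguok, Mgat3, Vat1l and Cand2 (0.77), with the alpha cell gene Gcg at rank 30 (0.72). Sst, its closest partner within groups, ranked 3264th here (r = 0.29), where the fall of Sst with PA is part of the measure and Rbp4 had 60.8 ± 10.5 CPM (SD, n = 12) in BSA and 66.2 ± 9.04 CPM in PA.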

How the data were processed

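Stranded mRNA libraries were made from dispersed mouse islet cells, and the QIAGEN RNA-seq Analysis Portal was used by the authors for read processing; the submitters' processing notes name the build GRCm38, and the aligner is not given in the sources used here. Per the file headers, the deposited table holds raw counts of reads on exons, with TPM, RPKM and CPM columns. The deposited counts were used for all tests, with empty cells read as 0, and the deposited TPM, made by the authors, only for levels between genes and for one alternative correlation (log2(TPM + 0.1)). The other 48 columns of values were not used. One line without a gene (0 counts) was left out.

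Counts of all 24 libraries were fitted together in R 4.3.3 with edgeR 4.0.16 (filterByExpr, TMM, group and batch as terms, quasi-likelihood F-tests on both sides, Benjamini-Hochberg adjustment over 15916 genes, called below 0.05). The fit was checked on simulated counts of independent libraries, with changes in Ctr PA only and no batch effect. That check therefore does not cover batch differences or shared animals. DESeq2 1.42.0, upper-quartile scaling, other filters, other samples, each batch alone and the omission of each library were alternatives. Log2 CPM used a prior count of 2. Correlations used scipy 1.17.1. Members and lists were chosen with earlier results of these data known. Genes named were all members, Gcg, Sst, Ppy and Ghrl, up to 3 called genes of smallest p from each list, and the 5 genes most correlated with each member, except a few that are not reported here; Ffar4, Crhr2, Spock3, Nkx6-1 and G6pc2, and family genes under the filter, were added after their values were seen. The lists covered alpha, delta, PP, epsilon and β-cells, shared endocrine factors, Iroquois and POU3F relatives, the ghrelin axis, retinoids, and acinar, ductal, endothelial, stromal, macrophage and glial cells. P-values measure the spread between libraries, which were treated as independent. Reads carried no molecular identifiers, so counting error is a lower bound. No 2 libraries of a group agreed within sampling noise (lowest chi-square per gene 6.29).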

Additional observations from a re-analysis of the deposited data

Results flagged for a closer look

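In 4 of the 28 sets of 6 libraries (7 genes in 4 groups) the highest library stood apart from the other 5 by Dixon's criterion at the 95% level, where chance gives about 1 in 20. All 4 libraries belong to batch 1. Irx1 had 12.1 CPM in Ctr BSA S1, the shallowest library, against 4.96 to 6.90 CPM in the other 5. Pou3f4 had 2.35 CPM (59 counts) in Ctr PA S11, against 0.873 to 1.17 CPM. Hhex had 6.59 CPM in αGlu BSA S2, against 4.92 to 5.33 CPM, and Ghsr had 2.93 CPM (96 counts) in αGlu PA S4, against 1.72 to 2.06 CPM.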

How the results depend on the processing

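Of 2002 member values under the alternatives, 1977 kept their side of the threshold, 18 passed it newly, 7 no longer passed it, and no called value changed sign. Among uncalled values 123 signs changed, 28 of them in 1 batch alone, 92 with 1 library left out and 3 without a batch term. The number of genes called with PA in Ctr was 0, but 1 (Hhex) with DESeq2, and between 0 and 1 with 1 library left out. With PA in αGlu it was 0, but 1 (Ttr) in a fit of only the compared groups and between 0 and 1 with 1 library left out. The 4 genes called between batches became 0 at the study's threshold. For PA averaged over both ASOs the count of 1 became 0 at the study's threshold and in batch 2 alone, and 2 (Hhex and Ttr) with DESeq2 or without the filter; in batch 1 alone the 1 gene called was Ttr instead of Hhex. With 1 library left out it was between 1 and 2, Ttr joining Hhex without Ctr BSA S1, Ctr PA S19 or S23, αGlu BSA S14 or S22, or αGlu PA S24 (adjusted p between 0.0179 and 0.0455). The 6 correlated pairs became 12 when additive group and batch effects were subtracted, 11 with Spearman's rho in place of Pearson's r, and 5 with deposited TPM. The pair lost with TPM was Hhex with Ghsr (adjusted permutation p = 0.0671). No paired analysis was possible because the labels do not give which libraries of different groups share an animal. Depth limits Pou3f4 and Ghsr most (19 to 103 counts per library). The cause of these differences was not tested.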

Other observations

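Of the genes on the alpha and delta lists, Slc38a5, an amino acid transporter gene of alpha cells, was the only one whose PA response passed the test of a difference between batches (difference of -0.68 ± 0.12 SE on the log2 scale, batch 2 minus batch 1, edgeR adjusted p = 0.0295). The call was lost with most single libraries left out (adjusted p up to 0.0860) and without the filter on low counts. Only 9 of all genes tested passed in that contrast, which was chosen after seeing the data. The macrophage list, whose cells lie beside the endocrine cells in the islet, had 6 of 8 genes lower with PA in Ctr and 1 in αGlu, and 0 of the 8 passed the test of the interaction (edgeR). Of all genes tested, 30% were called with PA in Ctr and 28.5% in αGlu, in either direction. Of the glial list, 6 of 8 genes were lower with αGlu ASO averaged over both media, beside 0.239% of all genes called. Of the endothelial list, 4 of 8 genes were lower in batch 2, beside 51.5% of all genes called in either direction. Of the 10 tested factors shared by endocrine cells, 1 rose with PA in Ctr (Insm1), and of 10 β-cell genes 3 rose and 3 fell.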
